A study of Mus musculus with 4 samples.

Results

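Nuclear receptors are transcription factors that share a zinc-finger DNA-binding domain and, in most cases, bind a small lipid-soluble ligand such as a steroid, a vitamin metabolite, a bile acid or an oxysterol. The genes described here are 10 members of this family with roles in the colonic epithelium: Vdr, Nr1i2, Nr3c1, Nr5a2, Rxra, Rara, Esrra, Rora, Nr1h2 and Nr1h3. They were found by symbol in a table of 31227 Ensembl genes, all 10 were matched, and all 10 passed the filter on low counts. RNA sequencing had measured colonic epithelial cells of mice with colitis from DSS (dextran sulfate sodium, which damages the lining of the gut). All mice, aged 8 to 10 weeks, drank 3.5% DSS for 5 days, then plain water until they were killed on day 7. A time field in the labels says 5 days. The wild-type (WT) group had 2 libraries (replicates 1 and 3), and the group labelled as epithelial Smad4 knockout (Smad4 KO) had 2 libraries (replicates 1 and 2). The sources used here do not give the driver of the deletion, the strain, the sex, any pooling of mice or whether libraries came from separate mice. The p-values therefore rest only on the scatter among these 4 libraries, and that scatter may be technical. No library without DSS was analysed here, so the values compare the genotypes during colitis and say nothing of the effect of DSS itself.

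Many nuclear receptors bind DNA with the retinoid X receptor as their partner and recognise copies of the hexamer AGGTCA, whose spacing and order differ between receptors. Without ligand, several of them hold corepressors at their target genes, and ligand exchanges these for coactivators. In the gut, the vitamin D receptor drives calcium uptake, the pregnane X receptor (Nr1i2) drives drug metabolism, the liver X receptors (Nr1h2 and Nr1h3) drive cholesterol export, and Nr5a2 and the glucocorticoid receptor (Nr3c1) act in crypt renewal, local steroid synthesis and the restraint of inflammation. Smad4 joins the receptor-activated Smad proteins and takes part with them in gene regulation downstream of TGF-β and BMP.

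The libraries held 42577920 to 67927291 counts, so that a count of 1 stood for 0.0150 to 0.0229 CPM (the share of a library that a gene takes, in parts per 1e6, after TMM scaling). Smad4 itself (chromosome 18, 73639009 to 73703780, minus strand, GRCm38) was at 152 and 180 CPM in WT and at 51.5 and 41.1 CPM in KO, 3.59-fold lower (adjusted p by edgeR = 0.00163). Smad4 RNA was thus reduced in the KO libraries but still present. The 10 epithelial markers were detected in every library, with summed levels of 18541 to 19608 CPM and Krt8 as the most abundant. Their sum was similar in all libraries, but 4 of the 10 rose and 1 fell. For this and the marker counts below, 15.2% of all tested genes passed. Krt20, a keratin of differentiated cells, rose 1.65-fold (adjusted p by edgeR = 0.00150) and the intestinal homeobox gene Cdx2 1.5-fold (adjusted p by edgeR = 0.00558), Epcam and Krt18 also rose, and Krt19 fell. Markers of other cells were lower. Of 8 neutrophil markers, 6 rose, and their summed level was 104 to 132 CPM in WT and 438 to 452 CPM in KO, most of it Ly6g, while Elane had no count. The sum thus follows Ly6g. S100a8 and S100a9 were at 1.72 to 4.44 CPM in WT and at 42.6 to 44.1 CPM in KO. Which cells held the Ly6g RNA was not tested. Of 9 macrophage markers, 2 rose, with sums of 177 to 195 CPM in WT and 171 to 176 CPM in KO, most of it Cd14, which did not pass. The median log2 fold change of these markers was 1.34. Of 9 fibroblast markers, 2 rose, Fbln1 most of all, with sums of 26.8 to 27.8 CPM in WT and 53.4 to 58.7 CPM in KO. Of 7 T cell markers, 1 (Cd4) rose (sums of 3.65 to 4.56 CPM in WT and 9.78 to 11.2 CPM in KO). Markers of B, endothelial and smooth muscle cells summed to at most 7.34 CPM in any library. The part of these cells in the results below was not tested, and fewer cells of a type cannot be told apart from less RNA per cell.

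Of the 10 receptors, 2 fell in Smad4 KO and 8 did not pass (quasi-likelihood test in edgeR, p-values adjusted over 15838 tested genes by the Benjamini-Hochberg method, threshold 0.05). The vitamin D receptor Vdr and the liver X receptor Nr1h3 fell. Over all tested genes 15.2% passed, 8.83% as higher and 6.40% as lower, so 2 of 10 is near the background. Calls over all tested genes also became fewer when either KO library was left out (closing section). Losses of calls in the lists below are therefore not particular to those lists. The median log2 fold change of the 10 was -0.06, against 0.01 over all tested genes. The libraries of the genotypes did not overlap for 5 of the 10 (Vdr, Nr1h3, Nr5a2, Rxra and Rara), against 59.4% of all tested genes. Most of the receptors varied little, whether between libraries of a genotype or between genotypes. The higher library of a genotype exceeded the lower by at most 1.23 times in every case except Rora in KO, where it did so by 2.86 times. In simulated counts with 200 changed genes the test recovered 8.00% of genes changed 1.5-fold and 50.6% of those changed 2-fold. The data gave 2412 calls, so the adjustment was less strict than in the simulation, and these shares do not carry over. The receptor Hnf4a, for example, was called at 1.17-fold. The 95% intervals of Nr1i2, Nr3c1, Rxra, Rara, Esrra and Nr1h2 stayed within log2 fold changes of -0.39 to 0.33. They thus fell short of a 1.5-fold shift.

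**Figure D1:**
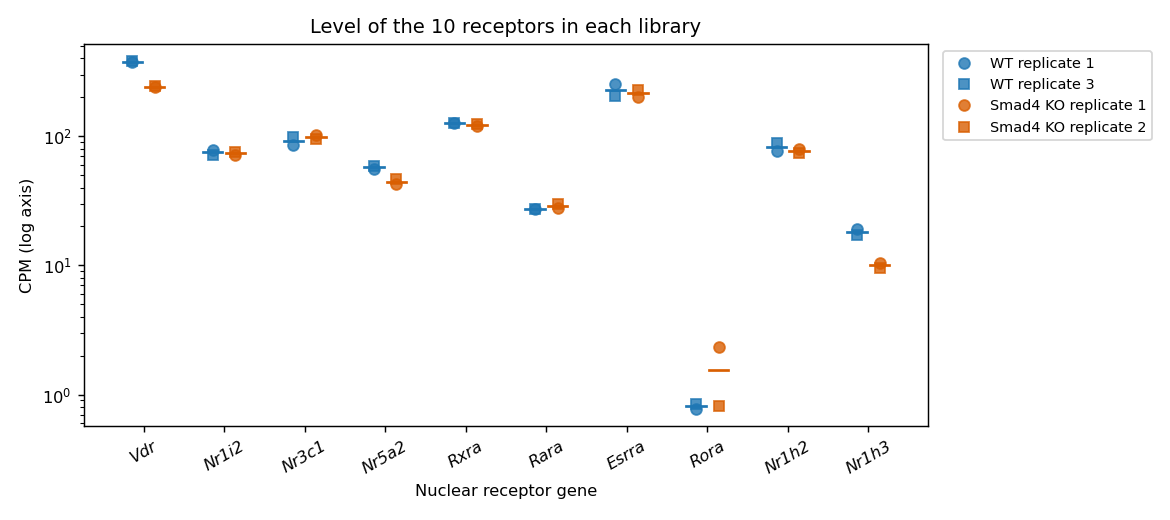
Level of each of the 10 receptors in CPM (log axis) in the 2 WT (blue) and 2 Smad4 KO (orange) libraries, with a bar at the mean of each genotype. Vdr and Nr1h3 sit lower in both KO libraries than in both WT libraries, Nr5a2 does so by less, and the KO libraries of Rora lie far apart at 2.31 and 0.809 CPM.

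To compare levels between genes, CPM was divided by the summed exon length of each gene. In WT the level per kb of exon was highest for Vdr (66.6 ± 0.890 CPM per kb, SD, n = 2), followed by Esrra (52.0 ± 7.59), Nr1i2 (29.4 ± 1.66), Nr1h2 (24.6 ± 2.57) and Rxra (23.0 ± 0.0147). Nr3c1 (12 ± 1.22 CPM per kb), Nr5a2 (9.71 ± 0.483), Nr1h3 (7.23 ± 0.508) and Rara (6.24 ± 0.00162) were lower, and Rora was at 0.0621 ± 0.00394 CPM per kb. Each gene lay above the next in both WT libraries, except that Nr1h2 and Rxra overlapped. In KO the order differed in 2 places. Esrra (48.9 ± 4.07 CPM per kb) lay above Vdr (42.7 ± 0.690), and Rara (6.55 ± 0.328) above Nr1h3 (3.97 ± 0.261). With the longest annotated transcript as the length, Esrra lay above Vdr in WT too (91.6 and 86.1 CPM per kb) and Nr1h2 above Nr1i2 (41.3 and 29.4 CPM per kb), so these places in the order depend on the length used.

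**Figure D2:**
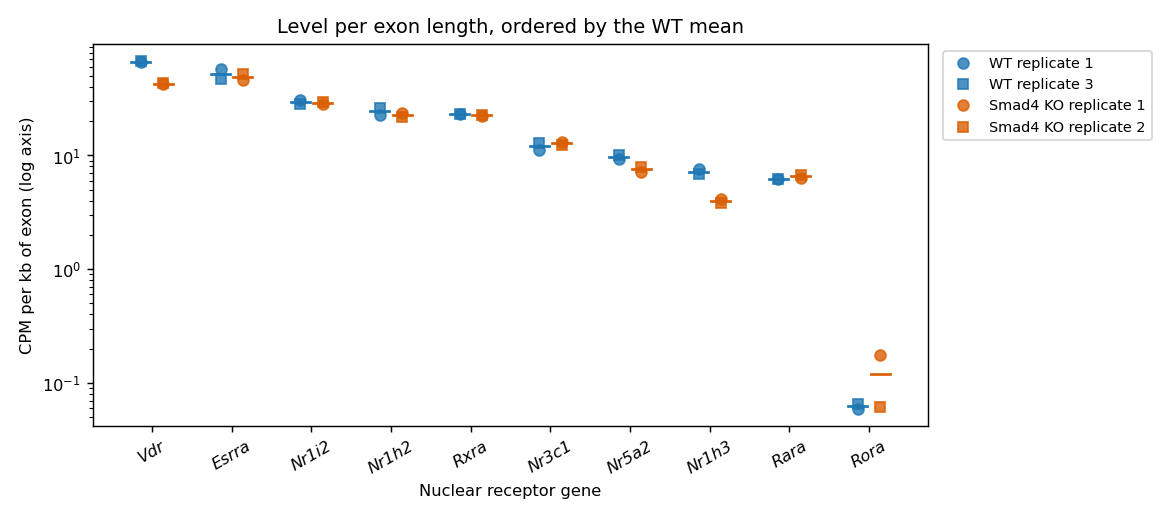
Level per kb of exon (log axis) of the 10 receptors in each library, ordered by the WT mean from Vdr at 66.6 to Rora at 0.0621 CPM per kb. The KO libraries (orange) put Esrra above Vdr and Rara above Nr1h3.

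Vdr (ENSMUSG00000022479, chromosome 15, 97854425 to 97910630, minus strand) encodes the receptor for active vitamin D. Its level was 373 and 380 CPM in WT and 238 and 244 CPM in KO. Both KO libraries lay below both WT libraries, and libraries of a genotype differed by less than 3%. Vdr fell 1.56-fold (log2 fold change -0.64, SE 0.0540, adjusted p by edgeR = 0.00205). The call held in all 11 alternative analyses, with log2 fold changes of -0.69 to -0.62 and an adjusted p by edgeR of up to 0.0279 when a library was left out.

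Of 7 vitamin D target genes, 2 fell, 1 rose, 3 did not pass and 1 (Cyp24a1) could not be tested, and without WT replicate 1 only 1 of them was called. The share called over all tested genes was 15.2%. The vitamin D targets that fell carry calcium into and through the enterocyte. The apical calcium channel Trpv6 was at 3.90 and 4.52 CPM in WT and at 0.233 and 0 CPM in KO, where 1 library had no count. Its log2 fold change was -5.19 (SE 1.05, adjusted p by edgeR = 0.0313). The size of this change is poorly determined, since the KO libraries held 14 and 0 counts. Leaving out KO replicate 2 gave -4.16, and leaving out KO replicate 1 gave -10.87, where the latter, with no count left in KO, depends on the prior count and is no bound. The calcium carrier calbindin-D9k, S100g, was at 9.43 and 5.28 CPM in WT and at 1.85 and 1.05 CPM in KO (5.09-fold, log2 fold change -2.35, SE 0.421, adjusted p by edgeR = 0.0216). The WT libraries of S100g differed from each other by more than those of any of the 10 receptors but stayed above both KO libraries. Both calls hung on single libraries. Trpv6 lost its call without WT replicate 1 or WT replicate 3 (adjusted p by edgeR = 0.0596 and 0.0730) and by DESeq2 (adjusted p = 0.0863). S100g lost its call without WT replicate 1 (adjusted p by edgeR = 0.0515) or KO replicate 2 (adjusted p by edgeR = 0.0879). The manganese exporter Slc30a10 rose, from 3.79 and 4.61 CPM in WT to 10.9 and 12.8 CPM in KO (2.83-fold, adjusted p by edgeR = 0.00656). An antisense gene, Gm2061, shares 533 of its exon bases and went from at most 0.353 CPM in WT to 2.20 and 2.86 CPM in KO. The junction protein Cldn12 had means of 68.2 and 59.8 CPM and did not pass (adjusted p by edgeR = 0.153). Cyp24a1, which breaks down vitamin D, had no count in any library, which allows up to 0.0299 CPM in WT and 0.0237 CPM in KO (3 counts over the libraries of a genotype, counting error only).

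The promoters of Vdr and of both calcium genes are printed because these genes fell together. Each run covers the 200 bases from 250 to 51 bases before the RefSeq start on GRCm38.p6, 5′ to 3′ on the strand of the gene, with AGGTCA or its complement TGACCT in capitals. The window of Vdr is chr15:97908347-97908546, that of Trpv6 is chr6:41636456-41636655 and that of S100g is chrX:162964650-162964849, all on the minus strand.
Vdr promoter: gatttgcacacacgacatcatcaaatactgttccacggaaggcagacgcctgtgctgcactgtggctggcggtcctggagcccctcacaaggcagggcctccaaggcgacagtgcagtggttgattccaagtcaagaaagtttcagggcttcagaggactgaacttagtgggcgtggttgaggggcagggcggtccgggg
Trpv6 promoter: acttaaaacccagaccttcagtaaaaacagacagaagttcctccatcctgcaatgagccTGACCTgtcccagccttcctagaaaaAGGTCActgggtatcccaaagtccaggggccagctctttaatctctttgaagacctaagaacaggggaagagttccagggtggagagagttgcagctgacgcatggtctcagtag
S100g promoter: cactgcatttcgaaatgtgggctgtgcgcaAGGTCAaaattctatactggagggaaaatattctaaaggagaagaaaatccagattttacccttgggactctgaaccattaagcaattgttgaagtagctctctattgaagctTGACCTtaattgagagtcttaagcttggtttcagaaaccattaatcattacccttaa
Trpv6 had matches beginning 191 and 165 bases before its start, and S100g had matches beginning 220 and 107 bases before its start. Of 27025 such windows, 1 per gene, 11.2% held at least 1 match and 0.877% held 2 or more. The windows of Vdr and of the other 4 vitamin D targets with a listed window and a test, Slc30a10, Cldn12, Atp2b1 and Cldn2, held no match. In both windows the matches lay on opposite strands. The genes were printed because they fell, and the motif was chosen after others had been searched. The shares are therefore a description and no test. A match describes the letters of the window only, and the hexamer is common to many receptors of the family.

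Nr1h3 and Nr1h2 encode the liver X receptors α and β, which sense oxysterols. Nr1h3 (ENSMUSG00000002108, chromosome 2, 91184061 to 91202834, minus strand) was at 19.1 and 17.3 CPM in WT and at 10.4 and 9.52 CPM in KO. The genotypes did not overlap, and Nr1h3 fell 1.82-fold (log2 fold change -0.86, SE 0.127, adjusted p by edgeR = 0.0115). The call was lost without KO replicate 1 (adjusted p by edgeR = 0.0564) and without KO replicate 2 (adjusted p by edgeR = 0.0870), at log2 fold changes of -0.93 and -0.80. Nr1h2 (chromosome 7, 44549616 to 44553951, minus strand) was at 76.4 and 88.6 CPM in WT and at 79.9 and 73.5 CPM in KO, with overlapping genotypes and no call (log2 fold change -0.10, 95% interval -0.36 to 0.15, adjusted p by edgeR = 0.551). Per kb of exon, Nr1h3 made up 22.8 ± 3.07% of the liver X receptor level in WT and 14.8 ± 0.0885% in KO (SD, n = 2, no test). Macrophages also express Nr1h3. Their markers Lyz2 (3.76 to 5.57 CPM in WT, 18.8 to 18.9 CPM in KO) and Csf1r (3.19 to 3.26 CPM in WT, 7.15 to 9.13 CPM in KO) rose, while Cd14 (159 and 181 CPM in WT, 136 and 134 CPM in KO) as well as Mrc1 (5.03 and 3.62 CPM in WT, 2.69 and 2.68 CPM in KO) were lower in KO and did not pass (adjusted p by edgeR = 0.0550 and 0.147). Cd14 passed as lower in 5 of 11 alternatives, among them DESeq2 and limma-voom. The remaining markers of the list, Adgre1, Cd68, C1qa, C1qb and C1qc, were higher in both KO libraries, at up to 3.16 CPM, and did not pass. The median log2 fold change of the list was 1.34, with only Cd14 and Mrc1 lower. The part of macrophages in the value of Nr1h3 was not tested.

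The promoter of the liver X receptor that fell, chr2:91195167-91195366 on the minus strand (same build and span before the start), held no AGGTCA. It held 1 copy of GGCGCC, a GC-rich element of the kind that Smad proteins can bind, beginning 119 bases before the start and shown in capitals.
Nr1h3 promoter: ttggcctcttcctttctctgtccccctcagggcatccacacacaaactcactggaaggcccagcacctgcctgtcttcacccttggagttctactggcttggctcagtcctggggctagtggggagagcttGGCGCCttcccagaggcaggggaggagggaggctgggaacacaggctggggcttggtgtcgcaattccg
GGCGCC was in 7.11% of all windows and in those of 2 of 9 receptors with a printable window (Nr1h3 and Esrra). The palindromic Smad element GTCTAGAC was in 0.163% of all windows and in no window of the 9 receptors. AGGTCA was in the window of 1 of the 9, Nr5a2, beginning 64 bases before its start.

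Liver X target genes went in both directions. Of 12 such genes, 5 fell, 3 rose and 4 did not pass (15.2% of all tested genes passed). Their median log2 fold change was -0.46. The genes with the smallest p were lipid desaturases. Scd2 fell from 2054 and 2233 CPM in WT to 699 and 691 CPM in KO (3.09-fold, adjusted p by edgeR = 0.000209), and Scd1 fell from 30.5 and 32.2 CPM to 8.88 and 10.4 CPM (3.25-fold, adjusted p by edgeR = 0.00144). Both calls held in all 11 alternatives. Among the sterol exporters the direction differed. Abcg5, a subunit of the apical exporter that returns sterols to the gut lumen, fell from 13.4 and 18.1 CPM to 5.96 and 6.12 CPM (2.61-fold, adjusted p by edgeR = 0.00875). Abcg1, which loads cholesterol onto lipoproteins, rose from 4.06 and 4.34 CPM to 8.00 and 9.59 CPM (2.1-fold, adjusted p by edgeR = 0.0182). Both lost their calls without either KO library, with adjusted p by edgeR of 0.0528 to 0.0553 for Abcg5 and of 0.0608 to 0.121 for Abcg1. With either KO library left out, 3 of the 12 targets passed in place of 8.

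Nr5a2 (liver receptor homologue, ENSMUSG00000026398, chromosome 1, 136842571 to 136960448, minus strand) was at 55.3 and 59.3 CPM in WT and at 42.3 and 46.6 CPM in KO. Both KO libraries lay below both WT libraries, but the difference missed the threshold (log2 fold change -0.36, SE 0.0919, 95% interval -0.60 to -0.13, adjusted p by edgeR = 0.0574). It passed by DESeq2 (adjusted p = 0.0108, where 21.8% of all tested genes passed), by limma-voom (adjusted p = 0.0495, where 16.7% passed), with a filter of 1 CPM (adjusted p by edgeR = 0.0488) and with library totals in place of TMM (adjusted p by edgeR = 0.0421). Of 6 target genes, 2 rose, 2 did not pass and 2 could not be tested (15.2% of all tested genes passed). The bile acid transporter Slc10a2 rose from 4.60 and 3.56 CPM to 49.9 and 47.8 CPM (11.9-fold, adjusted p by edgeR = 0.000347), with the KO libraries far above the WT libraries. The cell cycle gene Ccnd1 rose from 240 and 258 CPM to 336 and 331 CPM (1.34-fold, adjusted p by edgeR = 0.0116), a call lost without either KO library (adjusted p by edgeR = 0.0871 and 0.0895). Ccnd1 shares 1100 exon bases with the opposite-strand gene LTO1. The cyclin gene Ccne1 had means of 17.1 and 19.2 CPM and did not pass (adjusted p by edgeR = 0.366). The steroid synthesis gene Cyp11b1 had at most 11 counts in a library, and Nr0b2, the receptor-like repressor that Nr5a2 induces in liver, had no count in any library.

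Nr3c1, the glucocorticoid receptor (ENSMUSG00000024431), lies on chromosome 18 like Smad4, at 39410545 to 39519421 on the minus strand. It was at 85.7 and 98.9 CPM in WT and at 102 and 95.2 CPM in KO. The genotypes overlapped, and no change was called (log2 fold change 0.09, 95% interval -0.15 to 0.33, adjusted p by edgeR = 0.585). Per kb of exon it made up 39.4 ± 2.12% of the corticosteroid receptor level in WT and 46.9 ± 2.30% in KO (SD, n = 2, no test), the rest being the mineralocorticoid receptor Nr3c2. Of 12 glucocorticoid target genes, 4 rose, 2 fell and 6 did not pass, with a median log2 fold change of 0.34, and 3 passed without KO replicate 1. The share that passed over all tested genes was 15.2%. The receptor cochaperone Fkbp5 rose from 83.9 and 83.8 CPM to 205 and 197 CPM (2.40-fold, adjusted p by edgeR = 0.000488). Errfi1, an inhibitor of the EGF receptor, rose from 57.0 and 58.4 CPM to 115 and 122 CPM (2.06-fold, adjusted p by edgeR = 0.00108). The phosphatase Dusp1 rose 1.77-fold (19.9 and 23.5 CPM in WT, 36.9 and 39.7 CPM in KO, adjusted p by edgeR = 0.0117), but not without either KO library (adjusted p by edgeR = 0.0521 and 0.0795). Zbtb16, a zinc-finger factor, fell from 6.67 and 9.24 CPM to 0.798 and 1.39 CPM (7.22-fold, adjusted p by edgeR = 0.00697). Genes of this list thus moved both ways while the receptor itself showed no called change.

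Nr1i2, the pregnane X receptor (ENSMUSG00000022809, chromosome 16, 38248323 to 38294824, minus strand), was at 78.1 and 72.1 CPM in WT and at 72.1 and 76.0 CPM in KO. The libraries of the genotypes covered almost the same range (log2 fold change -0.02, 95% interval -0.22 to 0.18, adjusted p by edgeR = 0.894). Per kb of exon its share of the Vdr, Nr1i2 and Nr1i3 total was 30.2 ± 1.16% in WT and 40.0 ± 0.476% in KO (SD, n = 2, no test), with Vdr lower in KO. Of 17 target genes of drug metabolism and export, 6 rose, 1 fell, 8 did not pass and 2 could not be tested, with a median log2 fold change of 0.32. Of all tested genes, 15.2% passed, 8.83% as higher and 6.40% as lower. The genes given next are among those of the list with the smallest p, and all of them rose. The cytochrome P450 Cyp2c55 rose from 376 and 377 CPM to 930 and 880 CPM (2.40-fold, adjusted p by edgeR = 0.000298). The carboxylesterase Ces2a rose from 93.6 and 98.3 CPM to 153 and 152 CPM (1.59-fold, adjusted p by edgeR = 0.00322). The glucuronosyltransferase Ugt1a1 rose from 102 and 74.0 CPM to 191 and 190 CPM (2.17-fold, adjusted p by edgeR = 0.00983), though its value is uncertain because 1311 of its 2224 exon bases are shared with other Ugt1a genes. The calls of Cyp2c55, Ces2a and Ugt1a1 held in all 11 alternatives, while the list went from 7 calls to 4 without either KO library.

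Rxra (chromosome 2, 27676440 to 27762957, plus strand), the shared partner of Vdr, the liver X receptors, the pregnane X receptor and the retinoic acid receptors, was at 126 and 126 CPM in WT and at 120 and 125 CPM in KO. The difference was within a few percent and was not called (log2 fold change -0.03, 95% interval -0.19 to 0.13, adjusted p by edgeR = 0.778). Per kb of exon it made up 63.6 ± 1.11% of the retinoid X receptor level in WT and 64.3 ± 1.18% in KO, with Rxrb as the rest and no count of Rxrg. Rara (chromosome 11, 98927818 to 98974942, plus strand), a receptor for all-trans retinoic acid, was at 27.3 and 27.2 CPM in WT and at 27.6 and 29.6 CPM in KO (log2 fold change 0.07, 95% interval -0.18 to 0.31, adjusted p by edgeR = 0.700). Its share of the retinoic acid receptor level per kb was 69.9 ± 1.52% in WT and 63.8 ± 3.81% in KO (SD, n = 2, no test), and most of the rest was Rarg.

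Some enzymes that make the ligand of Rara rose in KO. Of 17 enzymes of ligand synthesis or breakdown, 3 rose, 8 did not pass and 6 could not be tested (15.2% of all tested genes passed). The 3 that rose belong to retinoic acid synthesis. The retinaldehyde dehydrogenase Aldh1a3 rose from 9.79 and 9.77 CPM to 73.6 and 68.8 CPM (7.28-fold, adjusted p by edgeR = 0.000197). Its paralogue Aldh1a1 rose from 41.3 and 37.9 CPM to 77.2 and 76.1 CPM (1.94-fold, adjusted p by edgeR = 0.00213). Rdh10, which makes retinaldehyde from retinol, rose from 40.1 and 38.8 CPM to 73.1 and 67.9 CPM (1.78-fold, adjusted p by edgeR = 0.00320). All 3 held in every one of the 11 alternatives. Aldh1a1 also counts among the pregnane X targets. The sterol hydroxylase Cyp27a1 had means of 18.9 and 14 CPM and did not pass (adjusted p by edgeR = 0.0939). Of 12 retinoic acid target genes, 2 rose, 1 fell, 5 did not pass and 4 could not be tested, against 15.2% called over all tested genes. The transglutaminase Tgm2 rose from 124 and 115 CPM to 789 and 842 CPM (6.81-fold, adjusted p by edgeR = 9.03e-05), and the intestinal homeobox gene Isx, which restrains vitamin A uptake, rose from 54.6 and 55.9 CPM to 120 and 121 CPM (2.19-fold, adjusted p by edgeR = 0.000684). Tgm2 shares 370 exon bases with the opposite-strand gene Rprd1b, which was at most 64.7 CPM in any library. The retinol-binding protein receptor Stra6 fell from 2.27 and 2.18 CPM to 0.798 and 0.794 CPM (2.79-fold, adjusted p by edgeR = 0.0410), a call lost without any of the 4 libraries in turn (adjusted p by edgeR = 0.0813 to 0.184). The homeobox gene Cdx1 had means of 653 and 544 CPM and did not pass (adjusted p by edgeR = 0.0674), though it passed as lower in 4 of 11 alternatives (library totals, no filter, DESeq2 and without WT replicate 1). The degrading enzymes Cyp26a1 and Cyp26b1 and the receptor Rarb, all of them classical retinoic acid targets, had too few counts to be tested.

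Esrra, the estrogen-related receptor α (chromosome 19, 6910977 to 6921813, minus strand), is an orphan receptor that drives mitochondrial genes. It was at 251 and 204 CPM in WT and at 202 and 227 CPM in KO. Esrra shares 73 exon bases with the opposite-strand gene Trmt112, at 15.0 to 18.3 CPM. The WT libraries differed by 1.23 times, the genotypes overlapped, and no change was called (log2 fold change -0.09, 95% interval -0.39 to 0.21, adjusted p by edgeR = 0.691). Per kb of exon it made up 98.3 ± 0.457% of the estrogen-related receptor level in WT and 99.8 ± 0.0873% in KO. Of 10 target genes, 1 fell and 9 did not pass by edgeR, where 15.2% of all tested genes passed. DESeq2 called 3 of the 10, where 21.8% passed. The citrate cycle enzyme Idh3a fell from 209 and 223 CPM to 149 and 149 CPM (1.45-fold, adjusted p by edgeR = 0.00603), a call lost without either KO library (adjusted p by edgeR = 0.0564 and 0.0637). Mdh2 (means of 411 and 362 CPM), of the same cycle, did not pass by edgeR (adjusted p by edgeR = 0.0892) but did by DESeq2 (adjusted p = 0.0446) and without WT replicate 1 (adjusted p by edgeR = 0.0432). Pdk4, which restrains pyruvate entry into the cycle, did not pass (means of 2.89 and 4.73 CPM, adjusted p by edgeR = 0.123).

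Rora (chromosome 9, 68653786 to 69388246, plus strand), which activates clock genes through the element that the Nr1d receptors repress, had only 37 to 139 counts in a library. It was at 0.776 and 0.849 CPM in WT and at 2.31 and 0.809 CPM in KO. KO replicate 1 alone was high, and KO replicate 2 lay within the WT range. No change was called (log2 fold change 0.94, 95% interval -0.56 to 2.44, adjusted p by edgeR = 0.363), and without KO replicate 1 the log2 fold change was 0.00042. Of 7 clock genes with Ror elements, 2 rose, 2 fell and 3 did not pass, and 1 passed without KO replicate 2. In the full data 15.2% of all tested genes passed. The repressors Nr1d1 (109 and 123 CPM in WT, 28.6 and 31.0 CPM in KO, 3.88-fold, adjusted p by edgeR = 0.000450) and Nr1d2 (1.48-fold, adjusted p by edgeR = 0.0287) fell. The clock repressor Cry1 (1.51-fold, adjusted p by edgeR = 0.0159) and the repressor Nfil3 (1.63-fold, adjusted p by edgeR = 0.0203) rose. The call of Nr1d1 held in all 11 alternatives. Nr1d2, Cry1 and Nfil3 lost theirs without either KO library (adjusted p by edgeR of 0.0929 to 0.171), Nr1d2 also without WT replicate 1 (adjusted p by edgeR = 0.0575) and Nfil3 also without WT replicate 3 (adjusted p by edgeR = 0.0506). Nr1d1 shares 263 exon bases with the opposite-strand receptor gene Thra, which was at 55.0 and 50.0 CPM in WT and at 41.7 and 44.7 CPM in KO. The sources used here do not give the time of day at which mice were killed.

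Among the other 39 mouse nuclear receptor genes, 28 could be tested, of which 3 rose, 5 fell and 20 did not pass. That is 28.6% called, against 15.2% of all tested genes. Without KO replicate 2 the 8 calls became 3. The bile acid receptor Nr1h4 rose from 68.6 and 71.4 CPM to 117 and 112 CPM (1.64-fold, adjusted p by edgeR = 0.00312). The fatty acid receptors Ppard (185 and 169 CPM in WT, 234 and 278 CPM in KO, 1.45-fold, adjusted p by edgeR = 0.0271) and Pparg (54.9 and 50.4 CPM in WT, 72.7 and 72.8 CPM in KO, 1.38-fold, adjusted p by edgeR = 0.0181) rose as well. Besides both Nr1d genes, the estrogen-related receptor Esrrg fell from 4.99 and 5.87 CPM to 0.632 and 0.390 CPM (10.6-fold, adjusted p by edgeR = 0.00351). Nr1h5 (1.45-fold, adjusted p by edgeR = 0.0406) and Hnf4a, a master regulator of enterocyte genes (942 and 910 CPM in WT, 766 and 812 CPM in KO, 1.17-fold, adjusted p by edgeR = 0.0444), also fell. Nr1d1, Nr1h4 and Esrrg kept their calls in all 11 alternatives. Without either KO library Pparg, Nr1h5 and Hnf4a lost theirs (adjusted p by edgeR of 0.124 to 0.317). Ppard lost its call without WT replicate 3 or KO replicate 2 (adjusted p by edgeR = 0.0744 and 0.130). Nr1h5 also lost it without either WT library (adjusted p by edgeR = 0.0685 and 0.0820), and Hnf4a without WT replicate 1 (adjusted p by edgeR = 0.0575) and with upper-quartile scaling (adjusted p by edgeR = 0.0505). The estrogen receptor gene Esr2 had the largest fitted change of the 37 tested receptors drawn in the plot of log2 fold changes, but rested on few counts. Its WT libraries were at 1.80 and 2.00 CPM and its KO libraries at 0.216 and 0 CPM, without a call (log2 fold change -4.14, 95% interval -7.18 to -1.10, adjusted p by edgeR = 0.0827). No count of Rxrg, Nr2e1, Nr5a1, Nr0b1 or Nr0b2 was found in any library.

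**Figure D3:**
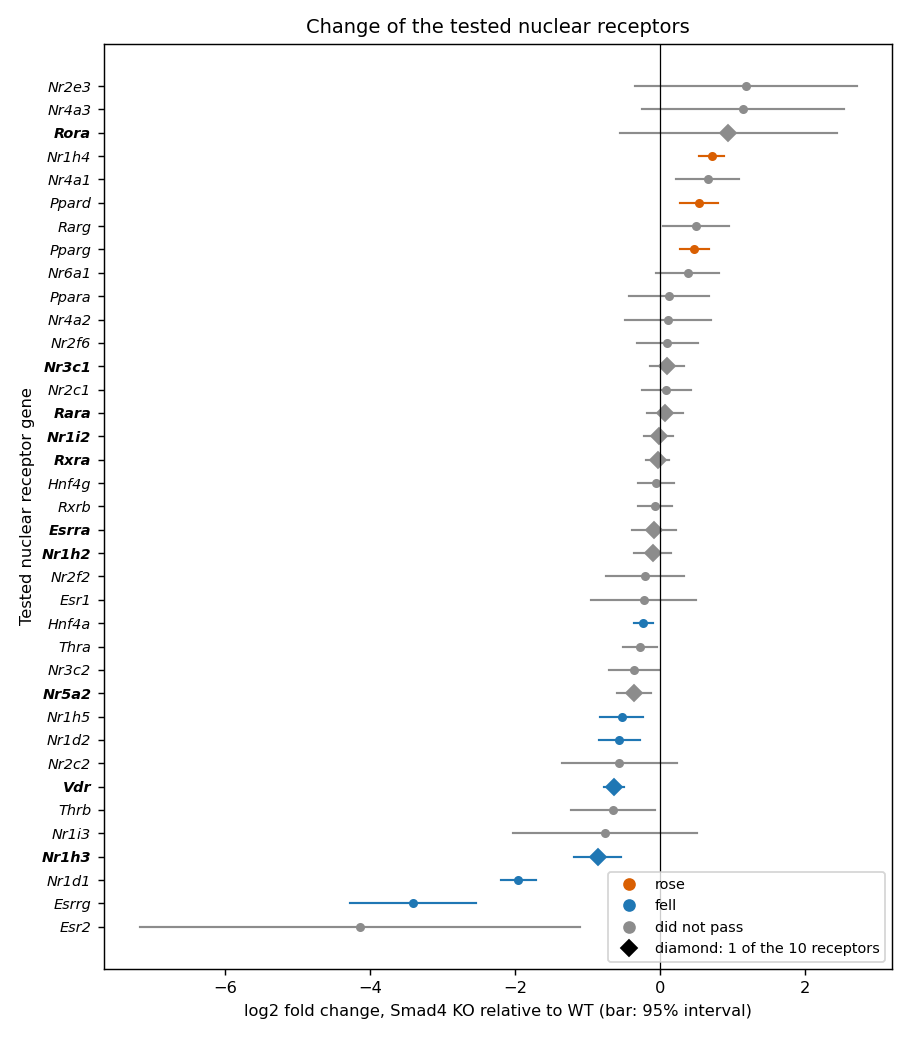
Log2 fold change of Smad4 KO relative to WT, with its 95% interval, for 37 of the 38 nuclear receptors that could be tested, the other not being reported here (diamonds mark the 10 described here; orange rose, blue fell, grey did not pass). Vdr and Nr1h3 lie to the left at -0.64 and -0.86. Thrb (-0.65) and Nr1i3 (-0.76), neither of them called, lie at similar places. Nr1d1, Esrrg and Esr2 lie further left at -1.96, -3.41 and -4.14, Esr2 with a wide interval and no call.

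Of 17 coactivators and corepressors that receptors recruit, 4 fell and 13 did not pass. Of all tested genes, 15.2% passed in either direction and 6.40% passed as lower. The median log2 fold change of the 17 was -0.23. The coactivator Ppargc1a, which works with Esrra and the fatty acid receptors on energy metabolism, fell from 43 and 44.5 CPM to 13.1 and 14.1 CPM (3.22-fold, adjusted p by edgeR = 0.000751), with the genotypes far apart. Steroid receptor coactivators Ncoa1 (84.7 and 93.3 CPM in WT, 64.6 and 59.8 CPM in KO, 1.43-fold, adjusted p by edgeR = 0.0168) and Ncoa3 (82.2 and 84.3 CPM in WT, 64.2 and 61.9 CPM in KO, 1.32-fold, adjusted p by edgeR = 0.0188) fell. Ncoa3 shares 154 exon bases with the opposite-strand gene Sulf2, which went the other way (90.8 and 91.3 CPM in WT, 155 and 159 CPM in KO). A further coregulator fell, Nrip1, a ligand-dependent corepressor (1.29-fold, adjusted p by edgeR = 0.0364). Ppargc1a kept its call in all 11 alternatives. Ncoa1, Ncoa3 and Nrip1 lost theirs without either KO library (adjusted p by edgeR of 0.0822 to 0.236), and Nrip1 also without WT replicate 3 (adjusted p by edgeR = 0.0818). Without WT replicate 1, 8 of the 17 passed.

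**Figure D4:**
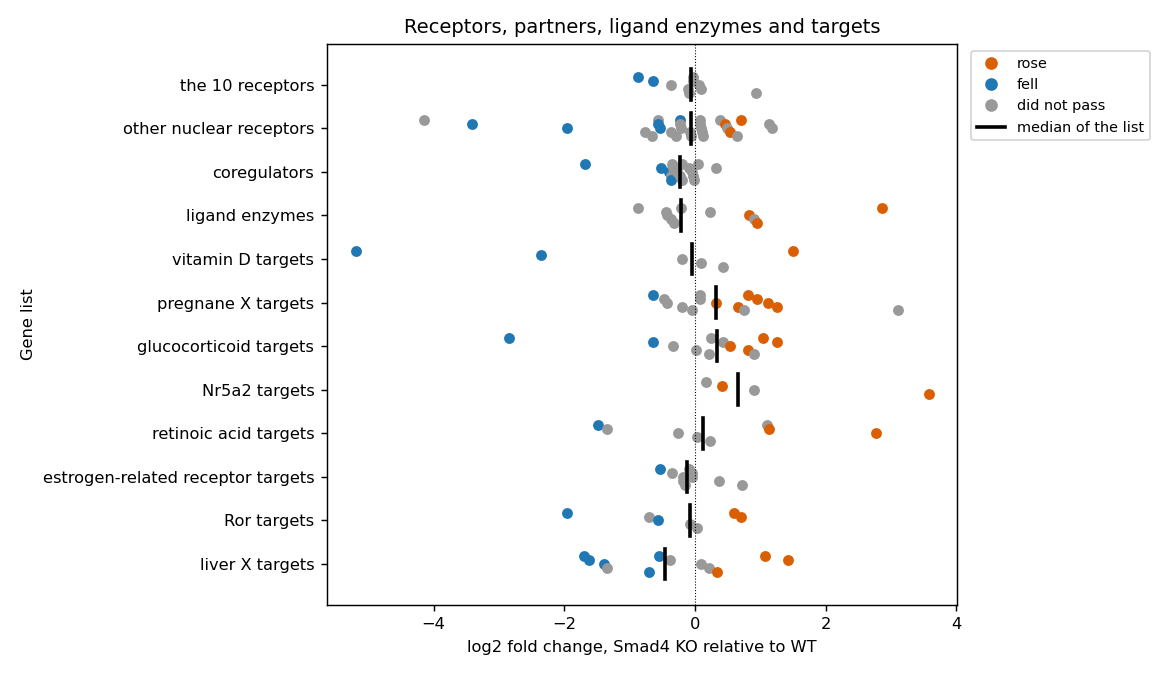
Log2 fold change of Smad4 KO relative to WT for each tested gene of the receptor list, its partners, the ligand enzymes and the target lists (orange rose, blue fell, grey did not pass), with a black bar at the median of each list. Medians run from -0.46 for liver X targets to 0.67 for Nr5a2 targets, and most target lists hold genes on both sides of 0. The median of the Nr5a2 targets rests on only 4 tested genes. It depends on Cyp11b1, which had at most 11 counts in a library.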

How the data were processed

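The authors deposited whole-number counts per Ensembl gene, not normalized, for 4 libraries of colonic epithelial cells (2 WT, 2 Smad4 KO). Per the labels' protocols, total RNA was extracted with TRIZOL and copied from random hexamers. The submitters' processing notes name StringTie 1.3.3b, HISAT2 2.1.0, FastQC 0.19.7 and SAMtools 1.9, with GRCm38 (mm10) as the build. The sources used here do not give the counting tool, its strand setting, its annotation release or its handling of shared reads, and overlapping and antisense genes are uncertain.

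Columns were matched to libraries by title. Symbols, positions and exon lengths came from GENCODE M21, which named 31207 of 31227 genes. Of 19618 genes with a count, filterByExpr kept 15838. After TMM scaling, genotype was the only term of the quasi-likelihood fit (glmQLFit and glmQLFTest of edgeR 4.0.16, R 4.3.3). The SE is the log2 fold change over the root of F, and the 95% interval uses the t distribution of the fit. On simulated data with 200 changed genes (3 runs, 15390 genes tested on average) 75.3% of 4-fold changes were recovered and 11.4% of calls were false.

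The members and lists were chosen with earlier results of these data known. Named were Smad4, the 10 receptors, up to 8 other receptors and up to 4 genes of each other list by smallest p, and the most abundant marker of each cell type; other names were chosen after their values were seen, and the results of some listed genes are not reported here. Promoters came from RefSeq (GRCm38.p6, 9 of 10 receptors used, the first listed start of each gene). The printed windows of Vdr and Nr1h3 lie inside the GENCODE spans of these genes, so other starts may lie further upstream. The motifs were chosen after the sequences had been searched for several others. Alternatives, also with DESeq2 1.42.0 and limma 3.58.1, are in the closing section.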

Additional observations from a re-analysis of the deposited data

How the results depend on the processing

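Over 15838 genes the 2412 calls became 975 to 2573 when a library was left out, with the fewest (978 and 975) without either KO library. Among the receptors 1 to 2 were called (2 in the full data), and over the other lists 22 to 54 (46). Without a library, values were -0.93 to -0.80 for Nr1h3, -0.075 to 0.025 for Nr1i2, -0.022 to 0.20 for Nr3c1, -0.23 to 0.057 for Esrra, -0.22 to 0.0079 for Nr1h2, -0.15 to 6.37 for Cyp11b1 and -0.031 to 1.3 for Ms4a1 (log2 fold changes). Of these, those of Nr1i2, Nr3c1, Esrra, Nr1h2, Cyp11b1 and Ms4a1 changed sign, and none of those 6 was called in the full data. Nr5a2 passed with library totals (-0.42), the filter of 1 CPM (-0.36), DESeq2 (-0.37) and limma-voom (-0.36), and the cause was not tested. Rora has no value under that filter. With transcript length in place of exon length, 6 of the 10 receptors kept their place in the WT order. No paired analysis was possible because the genotypes share only replicate number 1. Leaving out a library leaves 1 in a genotype, which is then assumed to vary like the other genotype. With 2 libraries a genotype and 200 changed genes, changes of 1.5-fold were seldom recovered in simulated counts. The data hold more calls than the simulation, so that share does not carry over. A receptor that did not pass may still differ.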

Other observations

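Some genes outside the choices described above were looked at after their values were seen. Abca1, a liver X target that exports cholesterol across the basolateral membrane, was also among those that rose. Claudin 2 (Cldn2), a pore-forming junction protein and vitamin D target, was at 173 and 0.0229 CPM in the WT libraries and at 232 and 0.0150 CPM in the KO libraries. The high libraries were replicate 1 of each genotype, and the low ones held 1 count each. In WT 4 genes, and in KO 5 genes, had at least 10 CPM in 1 library and under 0.1 CPM in the other, and 2 genes did so in both genotypes. None of the 10 receptors was among them.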
